A study of Mus musculus with 9 samples.

Results

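Gpr84, Gpr183 and Ccrl2 encode 3 membrane receptors of the G-protein-coupled receptor fold. They were taken from the deposited table by gene symbol and had been selected on their measured levels in these same libraries, as receptors that moved in opposite directions with lipopolysaccharide (LPS). They are 3 of the 6462 genes listed there. RNA was sequenced from BV2 cells, an immortalized mouse microglial line, in 3 groups of 3 libraries. Cells had LPS at 200 ng/ml for 1 h or for 12 h, or were untreated (0 h). LPS, which coats Gram-negative bacteria, acts through Toll-like receptor 4. The title of the series sets the question of the kinase PLK2 in the activation of microglia. All groups are the same cell line, and untreated cells kept for 1 h or 12 h were not analysed here, so LPS and time in culture cannot be told apart. Separate cultures are not named in the labels, and p-values therefore measure only the spread between these libraries, which may be technical.

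GPR84 is found mainly on myeloid cells, couples to inhibitory G proteins and responds to medium-chain fatty acids, although its natural ligand is debated. GPR183, also called EBI2, is the receptor for dihydroxylated cholesterol derivatives (oxysterols), along which immune cells migrate. CCRL2 belongs to the atypical receptors: it binds the chemoattractant protein chemerin, is not known to signal through G proteins, and can present chemerin to cells that carry the receptor CMKLR1.

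Levels are given in FPKM, fragments scaled to transcript length and to the mapped fragments of the library, and can be compared between genes because they are scaled by length. The table holds no read counts and the exact depth is unknown. A rough depth came from 63 genes with 1 annotated transcript that were at 0 in some library and under 0.3 FPKM in all. The smallest value above 0 of each gene was assumed to be 1 fragment. The median over these genes was 18900000 fragments (quartiles 11100000 and 24600000), a single figure used for every library. Sums of the listed FPKM values ranged over 195872 to 198075 for untreated libraries, 203515 to 205413 for LPS 1 h and 223720 to 228207 for LPS 12 h. Of 12 marker genes of microglia and macrophages, 8 were listed and above 0 in every library, Cd68 at 391, 368 and 391 FPKM and Csf1r at 66.1, 61.0 and 47.5 FPKM on average in untreated cells, at 1 h and at 12 h. Summed, the 8 markers ranged over 1182 to 1270 FPKM in untreated libraries, 1254 to 1288 FPKM in LPS 1 h libraries and 1224 to 1295 FPKM in LPS 12 h libraries. Against untreated cells 1 of the 8 rose and 5 fell at 1 h, and 3 rose and 4 fell at 12 h (limma, adjusted p under 0.05). Of all tested genes, 24.1% were called higher and 34.9% lower at 1 h, and 41.1% higher and 40.6% lower at 12 h. At 12 h the log2(FPKM + 1) differences were 1.97 for Cd14, 1.303 for Itgam, 1.01 for Fcgr1, -1.40 for Mertk and -0.92 for Trem2, and the part of these changes in the receptor values was not tested. Tyrobp, at 412 to 560 FPKM on average, and Cd68 make up most of the sum. Of 16 markers of other cell types of brain and blood, 0 were among the 6462 genes analysed. All 6462 carry the flag of the authors' test, so a gene that is not listed may still be expressed. In bulk RNA, fewer cells of a type and less RNA per cell cannot be told apart.

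The start-site regions of the 3 genes are shown with the matches found to motifs for NF-κB, the transcription factor family that LPS signalling activates. The windows, from RefSeq on GRCm38.p6, run from 250 bases before to 50 bases after the annotated start, all on the minus strand and read 5′ to 3′. Gpr84 lies at chr15:103310389-103310688, Gpr183 at chr14:121965144-121965443, and the window of the most upstream of 3 annotated Ccrl2 starts lies at chr9:111057469-111057768. Capitals mark matches to κB motifs.
Gpr84: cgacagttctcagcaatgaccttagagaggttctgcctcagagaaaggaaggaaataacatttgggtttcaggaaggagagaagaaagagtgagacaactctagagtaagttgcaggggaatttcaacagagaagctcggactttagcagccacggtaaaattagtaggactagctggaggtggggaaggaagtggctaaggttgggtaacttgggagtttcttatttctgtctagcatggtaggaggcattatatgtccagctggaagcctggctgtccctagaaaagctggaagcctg
Gpr183: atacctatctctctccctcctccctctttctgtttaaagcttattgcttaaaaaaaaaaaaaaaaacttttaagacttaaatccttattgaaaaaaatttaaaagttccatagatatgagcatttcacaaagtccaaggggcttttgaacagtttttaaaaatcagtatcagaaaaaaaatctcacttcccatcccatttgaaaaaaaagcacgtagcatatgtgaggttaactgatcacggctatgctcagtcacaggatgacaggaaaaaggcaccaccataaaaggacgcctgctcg
Ccrl2: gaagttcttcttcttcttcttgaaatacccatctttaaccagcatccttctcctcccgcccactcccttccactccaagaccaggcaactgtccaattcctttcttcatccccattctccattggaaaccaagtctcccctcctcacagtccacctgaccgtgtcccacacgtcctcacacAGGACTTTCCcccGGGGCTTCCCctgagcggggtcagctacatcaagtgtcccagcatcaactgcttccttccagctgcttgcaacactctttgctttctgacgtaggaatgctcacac

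In the Ccrl2 window, the NF-κB consensus, searched by name on both strands, matched GGGGCTTCCC at 56 to 47 bases before the start. The κ enhancer site, also searched by name with up to 1 mismatch allowed, matched AGGACTTTCC at 69 to 60 bases before the start, with the substitution G1A counted from the 5′ end of the motif. Of 32817 mouse windows of 300 bases, 4.5% held the consensus and 2.72% the κ enhancer site. The same window held a GC box (GGGCGG, in 35.6% of windows) and the core letters TGACG of the cAMP response element (in 20.8%). The other 2 Ccrl2 windows held only TGACG among the motifs searched. Neither the Gpr84 nor the Gpr183 window held the letters of these motifs, nor of AP-1 (TGANTCA, 7.81% of windows), the interferon-stimulated response element core (searched by name, 3.43%), GAS (TTCNNNGAA, 8.29%), the PU.1 core (GAGGAA, 28.3%), the TATA box (TATAAA, 13.6%) or the E-box (CACGTG, 7.15%). The Gpr183 window had a GC content of 35.3%, lower than in all but 3% of windows, against 47.0% for Gpr84 and 53.0% for Ccrl2, with a median of 52.7% over all windows. A mismatch was allowed for the κ enhancer site only. The Gpr84 window holds gggaatttca, which differs from the NF-κB consensus only in its last letter and was not counted. A match is a description of the letters and says nothing on whether a factor was bound.

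The comparison of the LPS groups with untreated cells addresses the early and late response to LPS. Gpr84 and Ccrl2 were higher at 1 h and at 12 h than in untreated cells, with the highest levels at 1 h, whereas Gpr183 was lower at 1 h and lower again at 12 h. The members had been chosen for these directions, so the differences from untreated cells are given as values with no test. Lack of overlap between groups is likewise a description only, and its share over all genes was not counted.

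Gpr84 stood at 3.37, 3.58 and 2.91 FPKM in the untreated libraries, 45.3, 44.7 and 41.9 FPKM at 1 h, and 24.6, 24.1 and 23.9 FPKM at 12 h. Its 3 groups did not overlap, and the 12 h libraries lay between the other groups. The mean was 43.95 ± 1.81 FPKM at 1 h (SD, n = 3, as throughout) against 3.29 ± 0.342 FPKM in untreated cells, a ratio of 13.4. At 12 h it was 24.2 ± 0.331 FPKM, 7.37 times the untreated mean. Among the 6462 listed genes, Gpr84 ranked 4857 to 5060 by level in untreated libraries, 941 to 1017 at 1 h and 1728 to 1752 at 12 h. On the log2(FPKM + 1) scale, its difference from untreated cells was 3.39 at 1 h, place 8 from the highest among 5643 tested genes, and 2.56 at 12 h, place 38.

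Ccrl2 was close to the floor of the table without LPS, at 0.153, 0.168 and 0.221 FPKM in the untreated libraries. It stood at 10.5, 10.8 and 11.2 FPKM at 1 h and at 3.06, 2.63 and 3.53 FPKM at 12 h. Again no group overlapped another, and every 12 h library lay between the untreated and the 1 h libraries. The mean was 10.82 ± 0.354 FPKM at 1 h and 3.08 ± 0.452 FPKM at 12 h, against 0.181 ± 0.036 FPKM in untreated cells, ratios of 59.9 and 17.0. The untreated level corresponds to about 7.08 to 10.3 fragments per library at the rough depth, or 4.18 to 13.4 over the quartiles of that depth, so both ratios rest on few fragments in the untreated group. The same estimate gives 486 to 519 fragments at 1 h and 122 to 164 at 12 h. On the log2(FPKM + 1) scale, which understates changes of genes near 0, the differences from untreated cells were 3.32 at 1 h (place 9 from the highest) and 1.78 at 12 h (place 90), whereas the log2 ratios of the means were 5.91 and 4.09. With a pseudocount of 0.1 in place of 1, the log2 differences of Ccrl2 were 5.29 at 1 h and 3.50 at 12 h.

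Gpr183 was the most abundant of the 3 receptors without LPS, at 18.6, 18.0 and 18.9 FPKM in the untreated libraries. It stood at 7.89, 7.21 and 6.76 FPKM at 1 h and at 2.05, 2.39 and 2.43 FPKM at 12 h. The groups did not overlap, and each later group lay below the one before it. The mean was 7.29 ± 0.566 FPKM at 1 h and 2.29 ± 0.212 FPKM at 12 h, against 18.5 ± 0.457 FPKM in untreated cells, so the untreated mean was 2.54 times that at 1 h and 8.08 times that at 12 h. The log2(FPKM + 1) differences from untreated cells were -1.24 at 1 h, place 14 from the lowest of 5643 tested genes, and -2.57 at 12 h, place 3. The distributions over all tested genes had medians of -0.035 at 1 h and 0.030 at 12 h.

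**Figure D1:**
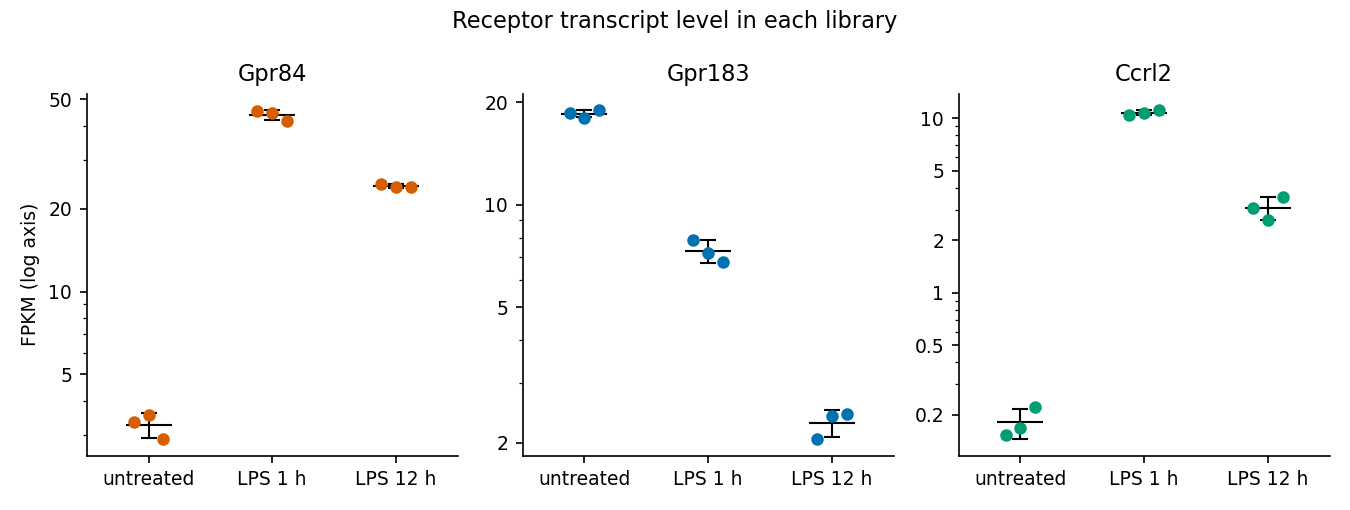
Level of each receptor in FPKM (log axis, a separate range for each gene) in the untreated, LPS 1 h and LPS 12 h libraries; points are libraries, horizontal lines the means and bars the SD (n = 3). Gpr84 and Ccrl2 were highest at 1 h (41.9 to 45.3 and 10.5 to 11.2 FPKM) and Gpr183 was highest in untreated cells (18.0 to 18.9 FPKM).

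The comparison of 12 h with 1 h uses libraries on which the receptors had been selected, so for them it too is given as values with no test. All 3 receptors were lower at 12 h than at 1 h, where 43.6% of the 5643 tested genes were called lower and 41.9% higher (limma, adjusted p under 0.05). Their 12 h and 1 h libraries did not overlap, and the share of all genes for which this holds was not counted. The SEs that follow come from the limma fit, which shares variance between genes, and describe only the spread between these libraries. The log2(FPKM + 1) difference of Gpr84 was -0.83 (SE 0.0526), and its 1 h mean was 1.82 times its 12 h mean. For Gpr183 it was -1.33 (SE 0.0586), and the 1 h mean was 3.18 times the 12 h mean. For Ccrl2 it was -1.54 (SE 0.0711), and the 1 h mean was 3.52 times the 12 h mean. Counted from the lowest difference, the receptors held places 196 (Gpr84), 62 (Gpr183) and 43 (Ccrl2). At 12 h Gpr84 and Ccrl2 were nearer to their untreated levels than at 1 h, and Gpr183 was farther from its own.

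The share of the early change that was present at 12 h is given as a description, with no test between the receptors. The Gpr84 mean was 20.9 FPKM above untreated cells at 12 h and 40.7 FPKM above them at 1 h, so 51.4% of the 1 h increase was present at 12 h. For Ccrl2 these increases were 2.90 and 10.6 FPKM, or 27.2%. Gpr183 was 16.2 FPKM below untreated cells at 12 h and 11.2 FPKM below them at 1 h, so 69.2% of its 12 h decrease was present at 1 h.

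Because each library carries all 3 receptors, their ratios within a library do not depend on that library's scaling. The Gpr84 to Ccrl2 ratio was 22.1, 21.2 and 13.1 in untreated libraries, 4.32, 4.14 and 3.74 at 1 h, and 8.02, 9.17 and 6.77 at 12 h. The LPS groups did not overlap, and the log2 ratio was 0.97 higher at 12 h than at 1 h. For the ratios too, lack of overlap is a description only, and its share over other gene pairs was not counted. Gpr84 to Gpr183 stood at 0.181, 0.199 and 0.154 in untreated libraries, 5.74, 6.20 and 6.19 at 1 h, and 12.0, 10.1 and 9.83 at 12 h. This log2 ratio was 0.81 higher at 12 h than at 1 h without overlap. The Ccrl2 to Gpr183 ratio was 0.00821, 0.00935 and 0.0117 in untreated libraries, 1.33, 1.5 and 1.65 at 1 h, and 1.5, 1.1 and 1.45 at 12 h. Here the LPS groups overlapped, with a log2 difference of -0.15 between 12 h and 1 h. The ratios rest on the values that chose the receptors, so they are given as values only. An exact permutation test was run on the log2 ratios, but with 3 libraries against 3 its smallest possible p is 0.1. No conclusion is drawn from that test.

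The order of the receptors therefore changed. In untreated cells Gpr183 made up 84.2% of the summed level of the 3 receptors, Gpr84 15.0% and Ccrl2 0.823%. At 1 h the shares were 11.7% for Gpr183, 70.8% for Gpr84 and 17.5% for Ccrl2, and at 12 h they were 7.75%, 81.9% and 10.4% in the same order of genes. In every LPS library Gpr84 was highest, then Ccrl2, then Gpr183, and the levels of neighbours in that order did not overlap within a group. The sum of the 3 was 22.1, 21.75 and 22.04 FPKM in untreated libraries, 63.7, 62.7 and 59.9 FPKM at 1 h, and 29.7, 29.1 and 29.9 FPKM at 12 h.

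**Figure D2:**
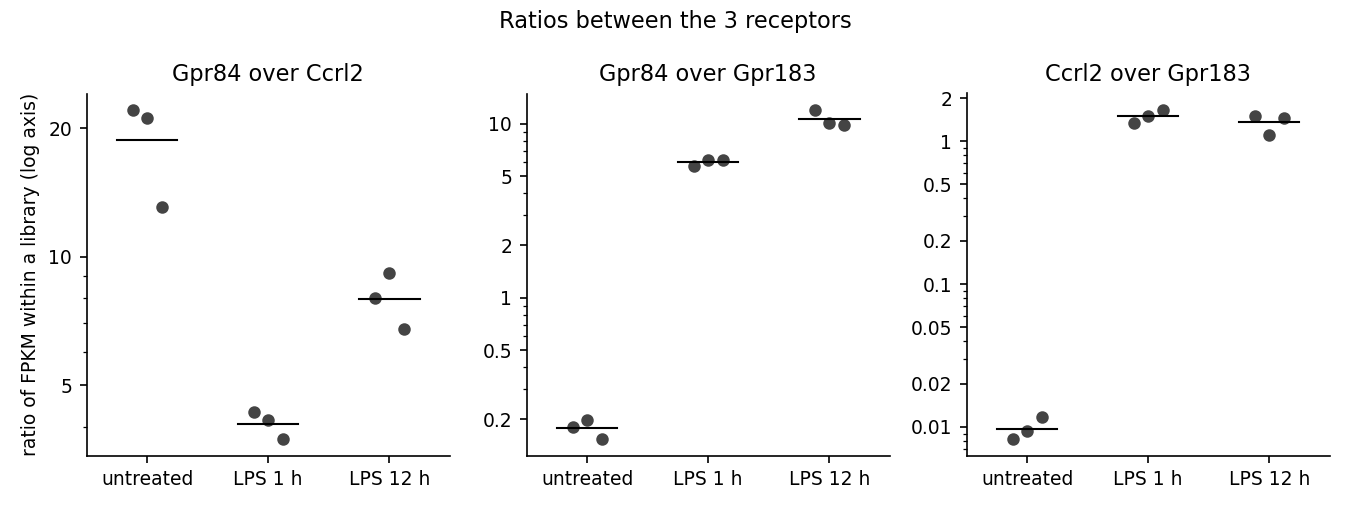
Ratio of FPKM values between each pair of receptors within a library (log axis), by group; points are libraries and lines the means. The ratios to Gpr183 are above 1 in every LPS library and below 1 in every untreated library, and Gpr84 to Ccrl2 runs from 3.74 to 9.17 in LPS libraries against 13.1 to 22.1 in untreated ones.

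The 3 receptors were set beside 123 other receptor genes of 3 lists (chemoattractant, lipid and metabolite, and nucleotide, amine, protease and adhesion receptors), of which 52 were listed in the table and 31 tested. At 1 h, 8 of the 31 rose and 17 fell, with a median log2(FPKM + 1) difference of -0.189, where 24.1% of all tested genes were called higher and 34.9% lower (limma, adjusted p under 0.05). At 12 h, 12 rose and 17 fell against untreated cells, with a median of -0.332, where 41.1% of all tested genes were called higher and 40.6% lower. No tested receptor of the lists had a larger increase than Gpr84 or Ccrl2, or a larger decrease than Gpr183, at either time, which describes how the 3 had been chosen. Between 12 h and 1 h, 12 rose and 16 fell, where 41.9% of all tested genes were called higher and 43.6% lower. There, 4 of the 31 had a lower difference than Gpr84, 2 a lower one than Gpr183, and 2 a lower one than Ccrl2, namely Cxcr4 and Ptger4.

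**Figure D3:**
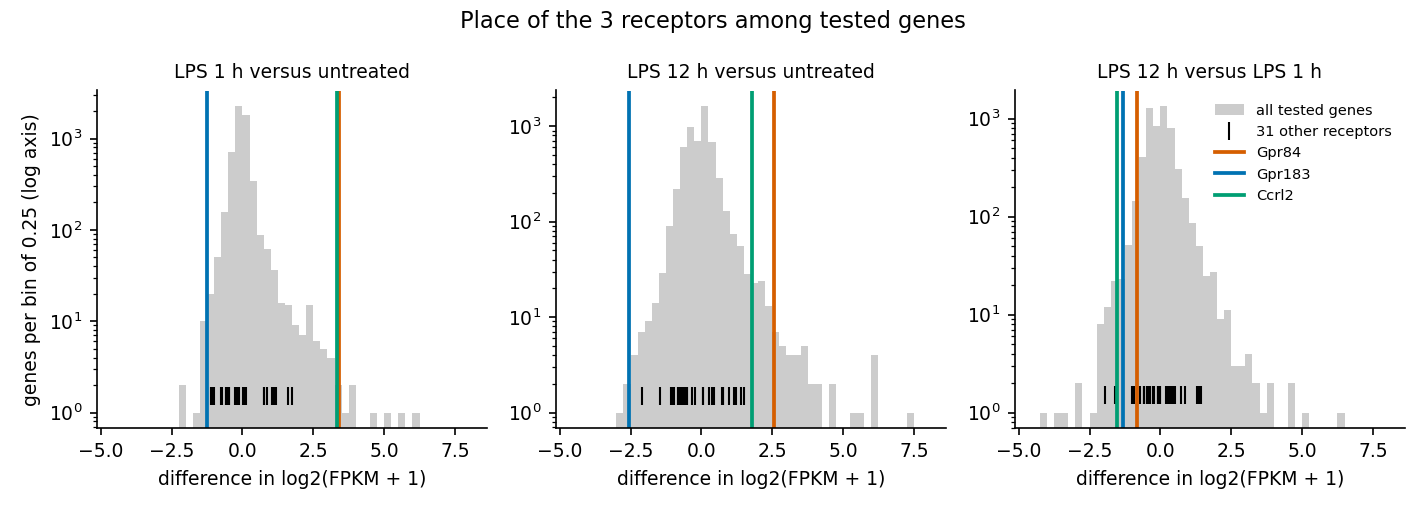
Number of tested genes (of 5643) by log2(FPKM + 1) difference in each comparison, on a log axis of counts, with the 3 receptors as vertical lines and the 31 other tested receptors as short ticks. Against untreated cells Gpr84 and Ccrl2 lie in the upper tail and Gpr183 in the lower one, and between 12 h and 1 h all 3 lie below the median of 0.007.

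Of the chemoattractant receptors, 6 of 35 were tested, with 3 higher and 2 lower at 1 h (median 0.451) and 4 higher and 2 lower at 12 h (median 0.350). The shares over all tested genes were 24.1% higher and 34.9% lower at 1 h, and 41.1% higher and 40.6% lower at 12 h. With no filter on level, 14 of the 17 listed members were called at 12 h, beside 5103 of all 6462 genes. With a mean of at least 5 FPKM only C5ar1, C3ar1 and Ptafr of this list were tested. All 3 were called at each time, beside 2561 of 4426 genes at 1 h and 3573 at 12 h. C5ar1, the complement C5a receptor, rose by 1.76 at 1 h (adjusted p = 2.47e-13), to 56.5 ± 1.78 FPKM against 16.0 ± 0.806 FPKM in untreated cells, the highest difference among the 31. It was still 1.52 above untreated cells at 12 h, at 47.8 ± 3.03 FPKM. Ptafr, the receptor for platelet-activating factor, rose by 1.20 at 1 h and was 0.28 above untreated cells at 12 h, and C3ar1, the complement C3a receptor, rose by 1.06 and 0.97. Ccr1, a receptor for inflammatory chemokines, fell to 1.49 ± 0.286 FPKM at 1 h against 4.06 ± 0.308 FPKM in untreated cells, and at 12 h stood at 5.85 ± 1.45 FPKM. Cx3cr1, the microglial receptor for fractalkine, fell by 0.76 at 1 h and fell by 0.56 at 12 h. Cxcr4, the receptor for CXCL12, differed by -0.16 at 1 h, which missed the threshold (adjusted p = 0.139), and fell by 2.10 at 12 h (adjusted p = 2.75e-11), the lowest of the 31.

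Of the lipid and metabolite receptors, which share ligand classes with GPR84 and GPR183, 12 of 43 were tested. At 1 h 2 rose and 10 fell (median -0.511), and at 12 h 2 rose and 8 fell (median -0.621), beside 24.1% higher and 34.9% lower of all tested genes at 1 h and 41.1% higher and 40.6% lower at 12 h. Hcar2, a receptor for hydroxybutyrate and niacin, rose by 1.59 at 1 h and by 1.14 at 12 h, at 67.7 ± 4.07 and 49.2 ± 1.68 FPKM against 21.8 ± 1.20 FPKM in untreated cells. Ptger4, a prostaglandin E2 receptor, rose by 1.10 at 1 h (adjusted p = 5.04e-11) but had a difference of -0.50 from untreated cells at 12 h (adjusted p = 1.16e-07), and fell by 1.60 between 1 h and 12 h. Ptgir, the prostacyclin receptor, had the opposite order, with differences of -0.60 at 1 h and 0.77 at 12 h. Cnr2, a cannabinoid receptor, and S1pr2 and S1pr1, receptors for sphingosine phosphate, fell at 1 h, with differences of -1.11, -1.07 and -0.47. At 12 h the differences from untreated cells were -1.46 for S1pr1, -0.33 for S1pr2 and -0.74 for Cnr2. Lpar6, a receptor for lysophosphatidic acid, had differences of -1.02 at 1 h and -1.01 at 12 h.

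Of the nucleotide, amine, protease and adhesion receptors, 13 of 45 were tested, with 3 higher and 5 lower at 1 h (median -0.113) and 6 higher and 7 lower at 12 h (median -0.229). The shares over all tested genes were 24.1% higher and 34.9% lower at 1 h and 41.1% higher and 40.6% lower at 12 h. With no filter on level 20 of the 21 listed members were called at 12 h, beside 5103 of all 6462 genes. With a mean of at least 5 FPKM only P2ry2, P2ry6, Adgre1, Adgrl2 and Fzd7 of this list were tested. Of these, 4 were called at 1 h and 5 at 12 h, beside 2561 and 3573 of 4426 genes. P2ry2, a receptor for extracellular ATP and UTP, rose by 0.78 at 1 h and by 1.21 at 12 h. Adora2b, an adenosine receptor, rose by 0.76 and 0.74, and the Wnt receptor Fzd5 by 0.85 and 0.37. Fzd7, also a Wnt receptor, fell by 0.73 at 1 h and fell by 0.83 at 12 h. Calcrl, which forms receptors for adrenomedullin and CGRP, rose by 1.40 at 12 h, and its 1 h difference of 0.12 missed the threshold (adjusted p = 0.164).

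**Figure D4:**
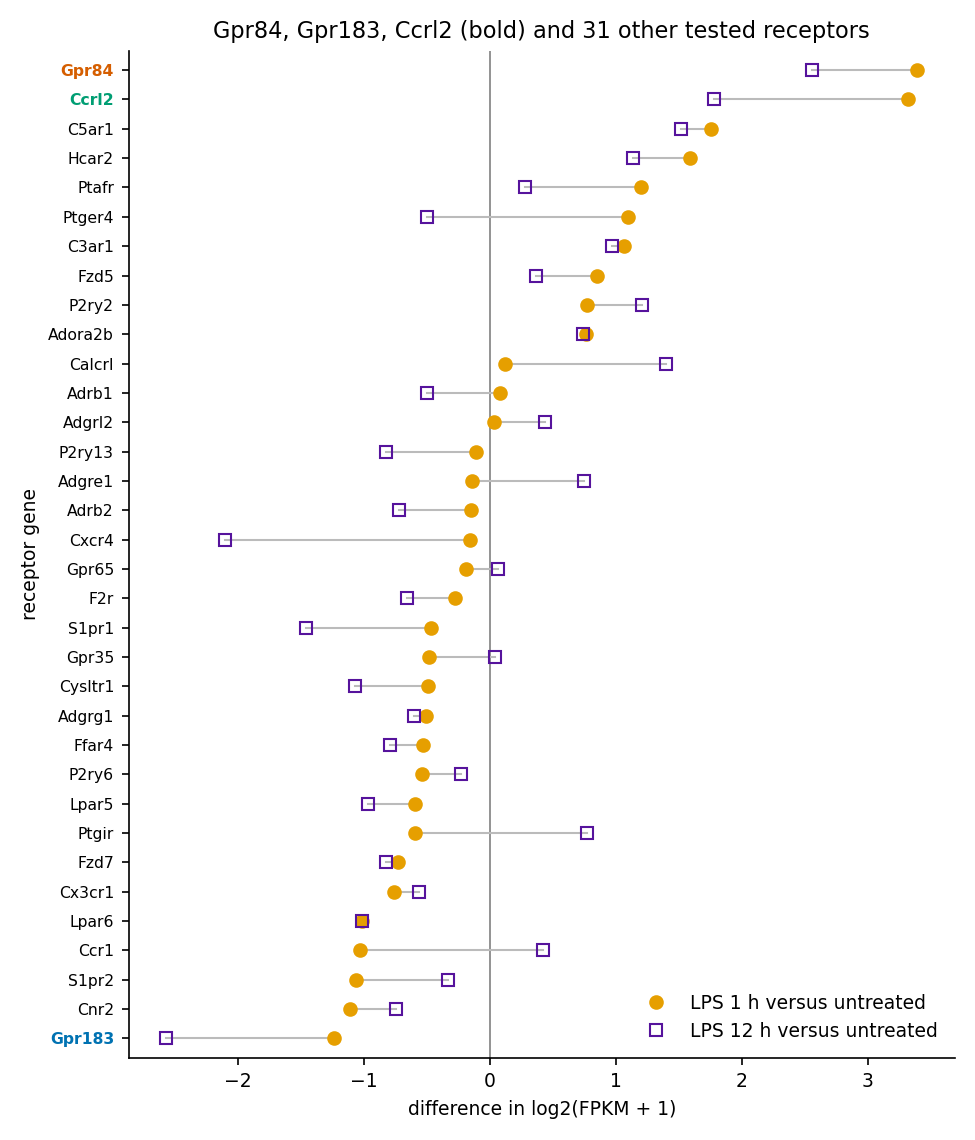
Log2(FPKM + 1) difference from untreated cells at 1 h and at 12 h for the 3 receptors and the 31 other tested receptors of the lists; each row is a gene and each point the difference of group means (n = 3 each). Gpr84 and Ccrl2 lie above, and Gpr183 below, the others, which span -1.11 to 1.76 at 1 h and -2.10 to 1.52 at 12 h.

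Genes around the ligands were counted next. For GPR183, 2 of 7 enzymes of oxysterol formation and breakdown were tested, and both fell at both times (medians -0.374 at 1 h and -0.389 at 12 h), where 34.9% of all tested genes were called lower at 1 h and 40.6% at 12 h. Hsd3b7, which acts in the removal of the GPR183 ligand, stood at 4.95 ± 0.278 FPKM at 1 h and 5.44 ± 0.0805 FPKM at 12 h, against 7.47 ± 0.531 FPKM in untreated cells. Cyp27a1, a sterol hydroxylase, stood at 11.2 ± 0.646 and 10.1 ± 0.536 FPKM, against 13.5 ± 0.340 FPKM in untreated cells. Between 12 h and 1 h the Hsd3b7 difference of 0.11 did not pass (adjusted p = 0.0611), and Cyp27a1 fell by 0.14 (adjusted p = 0.0136). That call was lost without LPS 1 h replicate 2 (adjusted p = 0.0618), without LPS 1 h replicate 3 (adjusted p = 0.0501), without LPS 12 h replicate 3 (adjusted p = 0.0729) and under quantile normalization (adjusted p = 0.0633). Ch25h and Cyp7b1, which make the GPR183 ligand, were not analysed here.

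For GPR84, 12 of 22 genes of medium-chain fatty acid turnover were tested. At 1 h 5 fell and the other 7 did not pass (median -0.112), where 34.9% of all tested genes were called lower. Under quantile normalization 8 were called. With a mean of at least 5 FPKM 3 were called, beside 2561 of 4426 genes. Over all alternative settings, quantile normalization among them, 2561 to 3498 genes were called at 1 h, against 3330 in the main fit. At 12 h 9 fell and 3 rose (median -0.578), where 40.6% of all tested genes were called lower and 41.1% higher. Acadm, the medium-chain acyl-CoA dehydrogenase, fell by 0.24 at 1 h and fell by 0.93 at 12 h, to 21.7 ± 1.72 FPKM against 42.2 ± 1.10 FPKM in untreated cells. Etfdh, which passes electrons from these dehydrogenases to the respiratory chain, fell by 0.86 at 12 h, and Acot7, an acyl-CoA thioesterase, rose by 0.53.

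For CCRL2, 3 of 6 ligand genes were tested, and all 3 rose at 1 h (median 1.604) and at 12 h (median 4.513), where 24.1% of all tested genes were called higher at 1 h and 41.1% at 12 h. These were the chemokine genes Ccl2, Ccl7 and Ccl5, whose binding to CCRL2 is disputed, while Rarres2, which encodes chemerin, was not analysed here. Ccl2 averaged 331 ± 20.5 FPKM at 1 h and 1782 ± 102 FPKM at 12 h, against 77.2 ± 5.63 FPKM in untreated cells. Ccl7 averaged 14.5 ± 1.04 and 377 ± 55.4 FPKM, against 4.17 ± 1.01 FPKM in untreated cells. All 3 chemokine genes rose between 1 h and 12 h, where 41.9% of all tested genes were called higher. The differences were 2.42 for Ccl2, 4.60 for Ccl7 and 3.21 for Ccl5.

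Of 43 genes for G proteins, arrestins and regulators downstream of such receptors, 24 were tested. At 1 h 4 rose and 9 fell (median -0.062), and at 12 h 10 rose and 11 fell (median -0.001). The 12 h shares are near those of all tested genes, 41.1% higher and 40.6% lower, and at 1 h 24.1% of all tested genes were called higher and 34.9% lower. Pde4b, a phosphodiesterase that breaks down cAMP, rose by 3.14 at 1 h, to 17.3 ± 0.765 FPKM against 1.08 ± 0.168 FPKM in untreated cells, and was 1.21 above untreated cells at 12 h. Rgs1, which shortens G-protein signals, rose by 1.46 at 1 h and fell by 0.55 at 12 h against untreated cells. Rgs2, of the same family, differed by 0.04 at 1 h, short of the threshold (adjusted p = 0.615), and fell by 1.90 at 12 h. The arrestin gene Arrb1 fell by 0.49 at 1 h and fell by 0.98 at 12 h, whereas Arrb2 rose by 0.39 at 12 h. Gnai3, an inhibitory G-protein subunit, averaged 51.8 ± 1.22 FPKM at 1 h and 57.9 ± 1.19 FPKM at 12 h, against 51.1 ± 2.09 FPKM in untreated cells.

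The genes most like each receptor were found among 559 tested genes whose group means spanned at least 1 on the log2(FPKM + 1) scale, by Pearson's r over the 9 libraries. Since the libraries fall into 3 groups, r mostly describes how the 3 group levels are spaced, and no test was made. It was taken on log2(FPKM + 1), which understates changes of genes near 0, such as Ccrl2 in untreated cells. The order of likeness was not recomputed with another pseudocount and may depend on it. Nearest to Ccrl2 was Plk2, the kinase named in the title of the series (r = 0.9988), at 120.3 ± 3.83 FPKM at 1 h and 40.2 ± 2.97 FPKM at 12 h, against 13.04 ± 0.722 FPKM in untreated cells. Next came Nfkbiz, an atypical IκB protein (0.9981), the kinase gene Pim1 (0.9981), the transcription factor gene Maff (0.9979) and Cflar, an inhibitor of caspase activation (0.9978). Nearest to Gpr84 were the chemokine gene Cxcl10 (0.9983), Mdm2, a ubiquitin ligase for p53 (0.9978), Nfkbia, which encodes IκBα (0.9974), Marcksl1, an actin-binding protein (0.9961), and the transcription factor gene Ets2 (0.9958). Nfkbia averaged 140.6 ± 2.21 FPKM at 1 h and 77.1 ± 1.56 FPKM at 12 h, against 14.1 ± 1.18 FPKM in untreated cells. Nearest to Gpr183 were Rin2, a Ras and Rab interactor (0.9963), Ankrd37 (0.9945), Bcl9l, a cofactor of β-catenin (0.9941), Rnf144b, a ubiquitin ligase (0.9938), and Frat2, a regulator of Wnt signalling (0.9936). Rin2 averaged 22.3 ± 0.280 FPKM at 1 h and 10.96 ± 0.447 FPKM at 12 h, against 37.7 ± 1.59 FPKM in untreated cells.

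**Figure D5:**
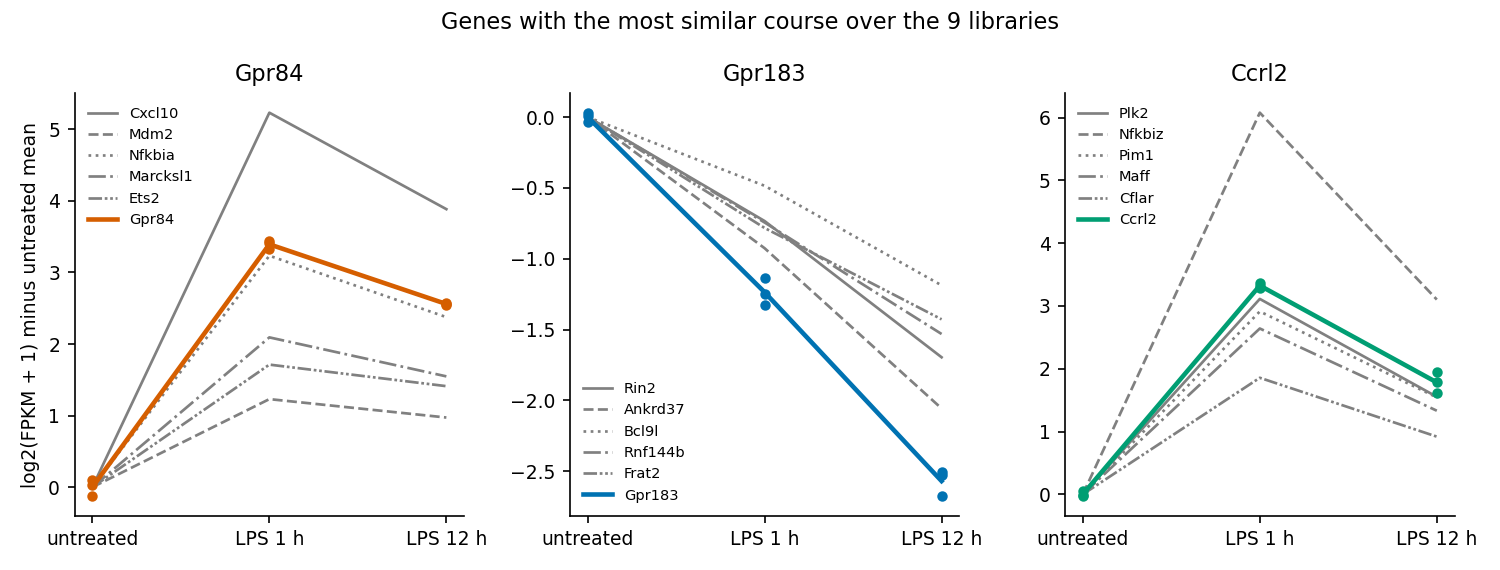
Mean log2(FPKM + 1) minus the untreated mean in untreated, LPS 1 h and LPS 12 h cells for each receptor and the 5 tested genes most like it; the receptor is the thick line, with its libraries as points. The genes beside Gpr84 and Ccrl2 peak at 1 h, and those beside Gpr183 fall at both steps.

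The neighbours of the receptors on the chromosome, 5 protein-coding genes on each side in RefSeq order, were compared as well. On chromosome 15, 5 of the 10 neighbours of Gpr84 were tested. Among them Itga5, an integrin subunit that lies 2 genes from Gpr84, rose by 1.81 at 1 h (adjusted p = 1.06e-12) and by 1.38 at 12 h (adjusted p = 1.25e-11). The genes next to Gpr84 were Copz1, whose 1 h difference of 0.04 did not pass (adjusted p = 0.341), and Zfp385a, which fell by 0.21 (adjusted p = 0.00216). On chromosome 14, Stk24 fell by 0.16 at 1 h and fell by 0.53 at 12 h, and Dock9, at -0.06 with no call at 1 h (adjusted p = 0.459), fell by 0.67 at 12 h. The receptor gene Gpr18, which lies next to Gpr183, was below the filter on level, at a mean of 0.502 FPKM at 12 h. On chromosome 9, Lrrfip2, next to Ccrl2, was at 0.07 with no call at 1 h (adjusted p = 0.122) and rose by 0.47 at 12 h. Epm2aip1, the other tested neighbour of Ccrl2, fell by 0.34 at 1 h (adjusted p = 3.32e-04) and fell by 0.43 at 12 h (adjusted p = 1.44e-05).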

How the data were processed

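RNA was measured in 9 libraries of BV2 cells. TRIzol was used for the total RNA and a TruSeq Stranded mRNA kit for the libraries, per the labels. Tools in the submitters' processing notes are HISAT2, Cufflinks, HTSeq, DESeq and Trimmomatic, with no versions or roles. The notes give a human build, whereas the gene symbols are those of mouse. The build behind the values is therefore unclear, and the only coordinates given are those of RefSeq windows.

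The authors deposited 1 table of FPKM per gene and library. Per the file headers, further columns give a q-value, a p-value, a rank score and a flag, from a test that is not given in the sources used here. Deposited q-values reach 0.0999 and all 6462 listed genes carry the flag, so they had been selected on these same samples, and the adjusted p-values are no error rate over the transcriptome. These columns were not used.

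FPKM values were taken as log2(FPKM + 1), and the 5643 genes with a mean of at least 1 FPKM over the 9 libraries went into a linear model in limma 3.58.1 under R 4.3.3 (1 mean per group, eBayes with trend). The other 819 were not tested, and all 3 receptors passed the filter. Benjamini-Hochberg adjustment covered the 5643 genes, and "rose" and "fell" mean an adjusted p under 0.05. The fit was tested on simulated data. The receptors and the gene lists were chosen with earlier results of these data known. Named genes are, in each list and comparison, up to 4 called members with the largest difference, and the 5 genes most like each receptor. Gnai3, Acot7, Arrb2, the microglia markers shown by level, the receptors below the filter, the chromosome neighbours that are named and values of genes that did not pass were chosen after their values were seen, as were the motifs, the ratios, the neighbours and the depth estimate, which uses GENCODE M21 transcript lengths. The planned test of the receptors between 12 h and 1 h is not reported, because their selection used the same libraries. Fragment numbers cover counting error only. Alternatives were other pseudocounts, filters and scalings, other variance settings, a block for the library number, and omission of single libraries.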

Additional observations from a re-analysis of the deposited data

How the results depend on the processing

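The differences of the 3 receptors between 12 h and 1 h, given with no test, kept their sign under every alternative run. Over those alternatives they ran from -0.868 to -0.813 for Gpr84, from -1.63 to -1.278 for Gpr183 and from -1.792 to -1.462 for Ccrl2, which could not be fitted with a mean of at least 5 FPKM because its mean is lower. Leaving out 1 library gave -0.868 to -0.813, -1.379 to -1.278 and -1.622 to -1.462.

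The differences from untreated cells moved with the pseudocount. With 0.1 they were 3.71 at 1 h and 2.85 at 12 h for Gpr84, -1.34 and -2.96 for Gpr183, and 5.29 and 3.50 for Ccrl2. With 0.5 they were 3.56 and 2.71 for Gpr84, -2.77 at 12 h for Gpr183, and 4.06 and 2.39 for Ccrl2. Under quantile normalization they were 3.48 at 1 h for Gpr84, and 3.16 at 1 h and 1.68 at 12 h for Ccrl2. No direction turned.

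Counts of called list members moved with the filter, which changes how many are tested. With a mean of at least 5 FPKM, 3 chemoattractant receptors, 4 nucleotide, amine, protease and adhesion receptors and 3 medium-chain fatty acid enzymes were called at 1 h, and 3 and 5 of the first pair of lists at 12 h and again between 12 h and 1 h. With no filter, 14 and 20 were called at 12 h, and 13 and 17 between 12 h and 1 h. Of all 6462 genes, 5103 and 5282 were then called in these comparisons. With a mean of at least 5 FPKM, 2561 of 4426 genes were called at 1 h, 3573 at 12 h and 3753 between 12 h and 1 h. Under quantile normalization 8 medium-chain enzymes were called at 1 h, where 2561 to 3498 genes were called over all alternatives. Of the oxysterol enzymes, 2 were called between 12 h and 1 h without the variance trend, and 0 to 2 on leaving out 1 library. In that comparison 3753 to 5282 genes were called over all alternatives, and 4679 to 4831 of 5643 on leaving out 1 library. The cause of these moves in the list counts was not tested. Of 124 named differences, 7 lost their call under at least 1 alternative and 0 reversed.

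The labels do not say whether libraries with the same number belong together. Residuals of libraries with the same number correlated from -0.0666 to 0.128, and 5 of 9 libraries correlated best with their own number. These values do not settle whether the numbers pair the libraries. With the library number as a replicate block, the receptors' differences between 12 h and 1 h were again -0.83, -1.33 and -1.54, and 4807 genes were called in that comparison against 4823 without it. The rough depth limits Ccrl2 in untreated cells to about 7.08 to 10.3 fragments per library.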

Other observations

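Of the 52 other receptor genes listed in the table, some lay below the filter and were not tested, and the following were picked after their values were seen. Fpr2, a formyl peptide receptor, was listed at 0 in every untreated and LPS 1 h library and at 0.277 to 0.695 FPKM at 12 h. Its relative Fpr1 averaged 0.650 ± 0.109 FPKM at 12 h and was listed at 0 in every untreated library. P2ry12, a purine receptor known as a marker of resting microglia, averaged 0.220 ± 0.0564 FPKM at 12 h, against 1.24 ± 0.336 FPKM in untreated cells. At these levels a library holds few fragments of each gene.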
